A study of Mus musculus with 15 samples.

Results

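The question was which side of a lung metastasis, the tumour cells or the neighbouring cells they mark, carries the transcripts of ligands, receptors, matrix and immune genes. The comparison uses 6 of the 15 RNA-seq libraries of the series, 3 of 4T1 cells recovered from lung and 3 of lung epithelial cells titled as niche. 4T1 is a mammary carcinoma line that arose in a BALB/c mouse. The tumour group held 4T1 cells taken from BALB/c lung 7 days after they were given by tail vein, with no dose given for this group. The niche group held epithelial cells sorted from lungs 7 days after mice received 800000 labelling 4T1 cells by the same route, titled by the epithelial surface protein EpCAM, with treatment given as control and 5 lungs pooled for each replicate. The labels name no genotype, age or agent beyond these, and the niche libraries that carry the label shSox9 were not entered. Nothing says that the 4T1 libraries came from separate animals, so the spread behind the p-values is that of libraries and may be technical. A further 6 libraries, 3 of cultured 4T1 cells and 3 of epithelium from distal lung of injected mice, served as levels outside the niche.

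A metastatic colony exchanges signals with the tissue it enters. Secreted and membrane-bound ligands on either cell act through receptors on the other, while collagens, laminins and matricellular proteins form the substrate that integrins bind. Alveolar type 2 cells, the surfactant-making progenitors of the alveolus, receive growth factors of the FGF, HGF and EGF families from mesenchyme and from neighbouring cells. Class I and class II histocompatibility molecules, interferon-stimulated genes and complement determine how each side is seen by the immune system.

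Libraries held 16034043 to 21581532 counts. Levels are given as CPM, counts scaled to a common library total, after scaling of libraries with TMM, in the order of libraries A, B and C. A gene is called when the adjusted p of edgeR's quasi-likelihood test is under 0.05, and a log2 difference is positive where the level was higher in 4T1 cells. The niche libraries were checked against cell type markers first. Their alveolar type 2 markers, 18 genes, summed to 10360 to 12870 CPM, against 243500 to 326100 CPM in distal epithelium and 235 to 295 CPM in 4T1 cells from lung. Sftpc, the surfactant protein C gene, stood at 9895, 9747 and 8000 CPM in the niche libraries and 43.3, 47 and 81.5 in 4T1 cells. The 13 fibroblast and mural markers summed to 12800 to 14690 CPM in the niche libraries, above the alveolar type 2 sum of the same library in B and C and slightly below it in A, and to 137 to 146 CPM in 4T1 cells. The 17 macrophage and monocyte markers summed to 3473 to 4442 CPM in the niche libraries, against 382 to 594 CPM in distal epithelium. Col1a1 and Col3a1, which encode fibrillar collagens of fibroblasts, and C1qa, C1qb and C1qc of macrophages were all present in all 3 niche libraries. The libraries titled as niche epithelium are therefore called niche libraries below, and the part of these other cell types in any difference was not tested.

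**Figure D1:**
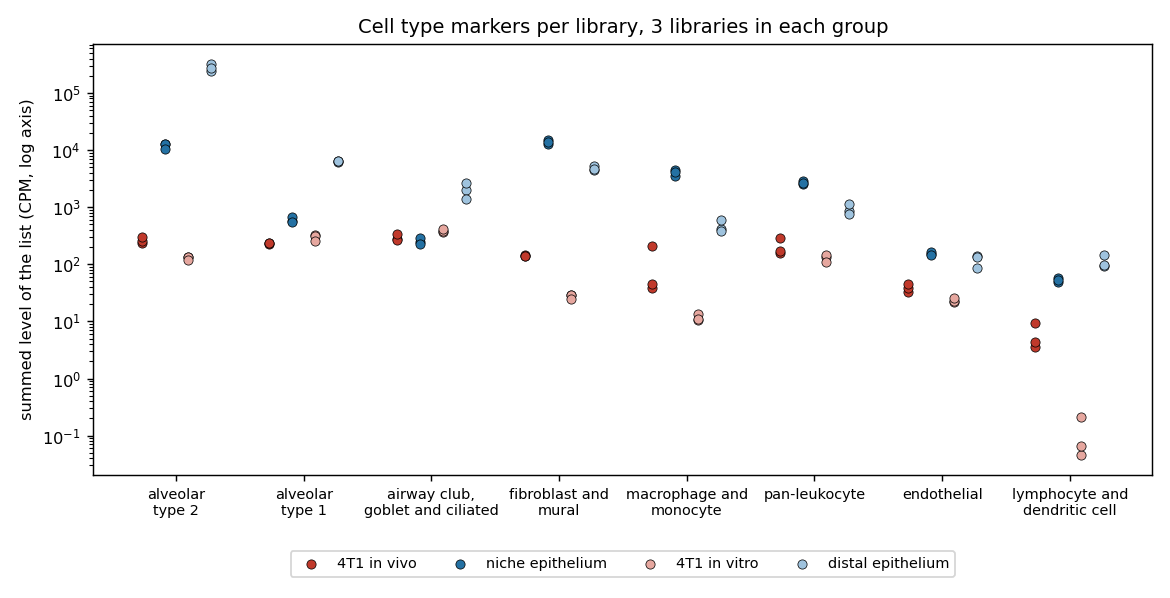
Summed CPM (log axis) of 8 marker lists in each library of 4T1 in vivo, niche epithelium, 4T1 in vitro and distal epithelium, 3 points a group. The niche points lie above the distal points for fibroblast, macrophage and pan-leukocyte markers and below them for alveolar type 2 and type 1 markers, and 1 of the 3 in vivo 4T1 points lies at 212 CPM of macrophage markers with the others at 38.2 and 45.8.

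Genes enriched on either side were also measured in the libraries of the other. Genes at 20 CPM or more in cultured 4T1 cells and at most 5% of that level in every distal library, 137 genes under a limit chosen after seeing the data, stood in niche libraries A, B and C at a median of 26.8%, 26.4% and 17.3% of their level in 4T1 cells from lung. In the other direction, 812 genes of distal epithelium stood in the in vivo 4T1 libraries at a median of 1.19%, 1.53% and 2.49% of their niche level. The share depends on the limits, and the 1 gene left by limits of 50 and 0.5 CPM stood at 80.1%, 135.5% and 29.5% in niche libraries A, B and C. Whether these transcripts came from 4T1 cells or were made by the niche cells was not tested. In bulk samples, fewer cells of a type and less RNA per cell cannot be told apart. Epcam itself was not called, at 45.9, 41.7 and 51.5 CPM in 4T1 cells and 66.6, 71.8 and 29.6 in the niche libraries (adjusted p = 0.375). Without niche library C the call changed, with a log2 difference of -0.60 (adjusted p = 0.00125 by edgeR).

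Of 16206 genes tested, 5321 (32.8%) were called higher in 4T1 cells and 5942 (36.7%) higher in the niche libraries. These 2 shares are the background for every list count below. At 4-fold or more the sides were uneven, with 396 genes (2.44%) higher in 4T1 cells and 3058 (18.9%) higher in the niche libraries. On TPM with limma the counts were 181 and 1678. Subtraction of the other side's profile by the shares above gave 1577 on the 4T1 side, and a subtraction based on 3 stricter carcinoma genes gave 878. Among named genes of at least 5 CPM, those furthest on the 4T1 side included Nptx1, a secreted neuronal pentraxin, at 52.9, 58 and 35.5 CPM against 4.4, 4.5 and 2.42 (log2 3.66 ± 0.27 SE). Tigit, an inhibitory receptor best known from lymphocytes, stood at 41.7, 34.4 and 46.2 CPM in 4T1 cells and 4.93, 4.46 and 3.53 in the niche libraries (log2 3.22, adjusted p = 4.35e-07). Tigit was at 88.7 CPM in cultured 4T1 cells, where lymphocyte and dendritic cell markers summed to at most 0.21 CPM. Uox, which encodes urate oxidase, stood at 20.3, 15.5 and 22.4 CPM against 1.32, 1.89 and 1.49, with 0.162 CPM in culture and 1.22 in distal epithelium. Exosc6, Gsta1, Prl2c2, Pak3, Hmx2, Cyp2c55 and Ndst3 completed the 10 largest differences on this side by that rule, between log2 3.09 and 4.63. Gsta1 and Prl2c2 have near-identical relatives, so their counts depend on how shared reads were split.

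The 10 largest on the niche side by the same rule include 7 genes with 0 counts in the 3 in vivo 4T1 libraries, whose rank rests on fitted values and for which only a lower bound can be given. Pla2r1, a phospholipase A2 receptor, was at least 899-fold higher in the niche libraries against a floor of 3 counts over the 4T1 group, and Fmod, a small proteoglycan that binds collagen, at least 389.6-fold. Medag, Nnmt, Rnf150, Brinp1 and Calhm5 were at least 393-fold to 549-fold higher on the same floor. Heyl, a Notch target of mural cells, had 2 counts in all in 4T1 cells, and its ratio of 5140 has a 95% counting interval of 1422 to 42440. Chl1, a cell adhesion molecule, had 1 count there, with a ratio of 4131 (interval 741 to 163200). Col3a1 stood at 3545, 3766 and 3892 CPM in the niche libraries and 0.848, 0.827 and 2.18 in 4T1 cells (log2 -11.53).

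**Figure D2:**
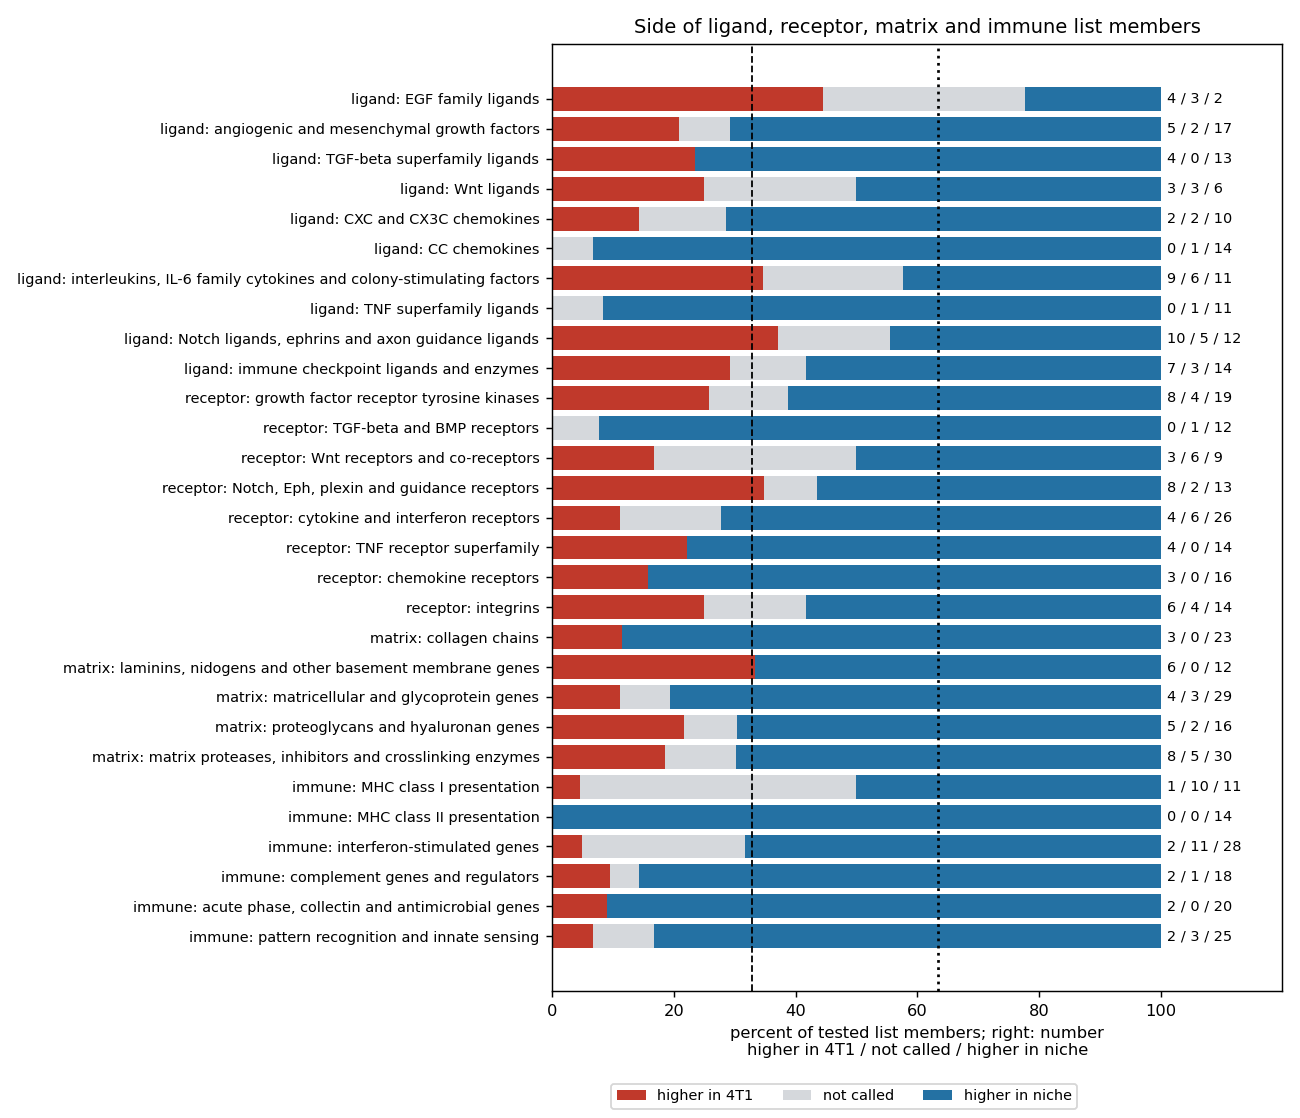
Share of tested members of 29 lists that were called higher in 4T1 cells (red), not called (grey) or called higher in the niche libraries (blue), with the 3 counts at the right. The dashed line marks the 32.8% of all tested genes called higher in 4T1 and the dotted line the start of the 36.7% called higher in the niche; blue bars reach past the dotted line for 28 of the 29 lists, all but the EGF family ligands.

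Of 218 listed ligand genes 180 were tested, the others being too low, and of these 44 were called higher in 4T1 cells and 110 higher in the niche libraries, with a median log2 difference of -1.93 against -0.03 over all tested genes, a median that scaling by library size alone moves to 0.10. In the EGF family 4 of 9 tested members were higher in 4T1 cells and 2 higher in the niche libraries, with a median of 0.67. With 9 genes these counts are near the 32.8% and 36.7% of all tested genes. Tgfa, a membrane-tethered ligand of the EGF receptor (ENSMUSG00000029999, GRCm38 chr6:86195223-86275719), stood at 81.8, 77.8 and 77.7 CPM in 4T1 cells and 19, 18.3 and 10.2 in the niche libraries, a log2 difference of 2.30 ± 0.20 SE (adjusted p = 1.13e-05). Hbegf, another ligand of that receptor, stood at 199, 201 and 208 against 92.1, 121 and 70.1 CPM (log2 1.09). Areg, the amphiregulin gene, stood at 17.4, 18 and 20.1 against 5.15, 6.12 and 2.54 CPM (log2 1.97). The groups did not overlap for any of the 3, which also held for 12242 of all 16206 genes tested. Niche library C was the lowest each time, as it was for the carcinoma genes above. Nrg1, a ligand of ERBB3 and ERBB4, was higher in 4T1 cells by a log2 of 0.67 (adjusted p = 0.00329). Ereg, the epiregulin gene, had 0 counts in the 4T1 libraries and 4.66, 7.38 and 6.44 CPM in the niche libraries, at least 129-fold higher there.

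Among interleukins, IL-6 family cytokines and colony-stimulating factors, 9 of 26 were called higher in 4T1 cells and 11 higher in the niche libraries, both near the 32.8% and 36.7% of all tested genes. Csf3, which encodes the granulocyte factor G-CSF (ENSMUSG00000038067, GRCm38 chr11:98701263-98703629), stood at 367, 245 and 349 CPM in 4T1 cells and 90.1, 64.6 and 59.2 in the niche libraries (log2 2.16 ± 0.20 SE, adjusted p = 1.33e-05). Il24, a member of the IL-10 family, stood at 87.1, 52.4 and 112 against 15.4, 9.9 and 9.85 CPM (log2 2.82). Clcf1, a ligand of the IL-6 family, stood at 44.4, 51.8 and 48.4 against 10.9, 10.4 and 7.18 CPM, and Il23a, a subunit of IL-23, at 33, 26.2 and 28 against 10.8, 14 and 5.33. All 4 were high in each 4T1 library with no overlap, and 12242 of all 16206 tested genes had no overlap between the groups. On the niche side, Il6 stood at 78.8, 87.2 and 127 CPM against 0.565, 0.46 and 0.506 in 4T1 cells (log2 -7.57), and Il12b, a subunit of IL-12 and IL-23, at 46.4, 72.8 and 117 against 0, 0.414 and 1.06. The IL-1 antagonist gene Il1rn and the lymphocyte attractant Il16 were higher in the niche libraries by log2 differences of -5.40 and -4.98. Lif was not called, at 56.1, 59.9 and 66.3 CPM in 4T1 cells and 45.8, 59.8 and 49.6 in the niche libraries (adjusted p = 0.111), and its call changed without niche library B (log2 0.34, adjusted p = 0.0216). It changed also with scaling by library size alone (log2 0.35, adjusted p = 0.0191 by edgeR).

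Chemokines lay mostly with the niche libraries. Of 15 CC chemokines 14 were called higher in the niche libraries, with a median log2 of -5.13. The remaining gene, Ccl25, was not called (log2 0.38, adjusted p = 0.0793), and was called higher in 4T1 cells without niche library A, on TPM with limma and with library size alone (adjusted p = 0.0239, 0.0166 and 0.0305). Ccl12, a monocyte attractant, stood at 203, 214 and 366 CPM in the niche libraries and 0.848, 0.414 and 1.52 in 4T1 cells, and Ccl11, the eotaxin gene, at 131, 63 and 146 against 0.0471, 0.184 and 0.152. Ccl22, a product of dendritic cells and macrophages, differed by a log2 of -8.47. Ccl19, the ligand of CCR7, had 2 counts in all in 4T1 cells, with a ratio of 406 (interval 112 to 3361). Of 14 CXC and CX3C chemokines, 10 were higher in the niche libraries. Cxcl14 stood at 1090, 1223 and 1143 CPM in the niche libraries and 0.518, 0.781 and 1.32 in 4T1 cells, and Cxcl12 at 239.7, 255 and 385 against 0.612, 0.643 and 1.67. Cxcl13, which draws lymphocytes into follicles, stood at 127, 142 and 247 CPM in the niche libraries and 0.0942, 0 and 0.152 in 4T1 cells. The 2 higher in 4T1 cells were Cx3cl1 and Cxcl1. Cx3cl1, a membrane-anchored chemokine (ENSMUSG00000031778, GRCm38 chr8:94772009-94782427), stood at 247, 252 and 318 CPM in 4T1 cells and 58, 80 and 54.6 in the niche libraries (log2 2.07 ± 0.16 SE, adjusted p = 5.13e-06). Cxcl1, a neutrophil attractant, stood at 363, 325 and 349 against 200, 201 and 200.1 CPM (log2 0.78). The fibroblast and macrophage marker sums given above were higher in the same niche libraries, and their part in the chemokine counts was not tested.

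Growth factors of mesenchyme lay mostly with the niche libraries, where 17 of 24 tested members of the angiogenic and mesenchymal list were higher, with 5 higher in 4T1 cells. Igf1 stood at 404, 465 and 602 CPM in the niche libraries and 0.471, 0.46 and 0.961 in 4T1 cells, Gas6, the ligand of AXL, at 310.2, 305 and 378 against 0.612, 0.689 and 0.759, and the midkine gene Mdk at 32.5, 42.7 and 47.5 against 0, 0.046 and 0.152. Fgf10, a branching and alveolar growth factor, stood at 27.9, 33.5 and 42.1 against 0.188, 0 and 0 CPM (log2 -8.95). All 4 were at or under 1 CPM in every 4T1 library. The 4T1 members were Angptl2, an angiopoietin-like secreted protein (279.7, 272 and 283 against 79.2, 69.9 and 61.6 CPM), Apln, the apelin gene (log2 1.82), Pdgfa (log2 1.22), Vegfb (log2 0.84) and Pdgfc (log2 0.44).

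Of 17 TGF-beta superfamily ligands, 13 were higher in the niche libraries, 4 were higher in 4T1 cells and none was without a call. Bmp4 stood at 34.9, 45.4 and 50.4 CPM in the niche libraries and 0.33, 0.598 and 0.506 in 4T1 cells, and Bmp5 at 58.8, 68.6 and 73.4 against 0.471, 0.046 and 0.152. Bmp3, an antagonist of other BMPs, stood at 64, 76.7 and 101 against 0.0471, 0.138 and 0 CPM. On the 4T1 side Bmp7 stood at 13.1, 16.2 and 13.4 against 3.61, 2.97 and 3.84 CPM (log2 2.03), and Gdf11, the activin subunit gene Inhba and the protease gene Bmp1 differed by log2 0.86, 0.82 and 0.65. Wnt ligands divided by member, with 3 of 12 higher in 4T1 cells and 6 in the niche libraries. Over all tested genes these shares were 32.8% and 36.7%. Wnt7b, an epithelial Wnt of the lung (ENSMUSG00000022382, GRCm38 chr15:85535437-85582473), stood at 159.7, 169 and 143 CPM in 4T1 cells and 45.1, 47.7 and 27.8 in the niche libraries (log2 1.95 ± 0.19 SE). Wnt10b (log2 2.32) and Wnt10a (log2 0.89) lay on the same side. Wnt2, a mesenchymal Wnt, had 3 counts in all in 4T1 cells and 51.7, 52.1 and 73.7 CPM in the niche libraries, a ratio of 1206 (interval 412 to 5853). Wnt5a, a ligand of ROR2, had a ratio of 592 (interval 163 to 4892) from 2 counts.

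None of 12 TNF superfamily ligands was called higher in 4T1 cells and 11 were higher in the niche libraries. Tnfsf13b, the B cell factor BAFF, stood at 117, 126 and 185 CPM against 0.471, 0.184 and 0.253, Tnfsf12, the TWEAK gene, at 14.2, 11.8 and 17.6 against 0.0942, 0.138 and 0.101, and Tnf at 8.1, 7.34 and 8.73 against 0.33, 1.01 and 0.911. Tnfsf10, the TRAIL gene, was not called, at 15.2, 13.2 and 20 CPM in 4T1 cells and 15.8, 21.6 and 21.2 in the niche libraries, and was called without in vivo library C (log2 -0.50, adjusted p = 0.0279). Notch, ephrin and guidance ligands were near the background on the 4T1 side, with 10 of 27 higher there and 12 higher in the niche libraries. Sema3e, a semaphorin that binds plexin D1, stood at 69, 64.1 and 62.6 CPM in 4T1 cells and 16.9, 17.4 and 10.3 in the niche libraries. Dll1 (log2 1.61), Efnb2 (log2 1.53) and Sema3b (log2 1.45) followed. Slit2 and Slit3, ligands of ROBO receptors, stood at 167, 209 and 269 and 54.5, 56.7 and 67.3 CPM in the niche libraries and under 1 CPM in each 4T1 library.

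Of 24 checkpoint ligands and immunoregulatory enzymes, 7 were higher in 4T1 cells, near the 32.8% of all tested genes. A further 14 were higher in the niche libraries, against 36.7% of all tested genes. Nt5e, which encodes the adenosine-producing enzyme CD73, stood at 334, 303 and 286 CPM in 4T1 cells and 59.5, 64.4 and 34.4 in the niche libraries (log2 2.53 ± 0.22 SE, adjusted p = 8.66e-06). Its upstream partner Entpd1, the CD39 gene, lay on the other side at 106, 113 and 108 CPM in the niche libraries against 1.32, 1.84 and 5.11 in 4T1 cells (log2 -5.34). The galectin gene Lgals1 stood at 4842, 4178 and 5076 against 1412, 1417 and 1058 CPM, and Ido2, a tryptophan-degrading enzyme, at 6.08, 6.3 and 11 against 1.41, 0.945 and 2.29. Cd86 and Cd80, costimulators of antigen-presenting cells, were niche genes, at 74, 87.3 and 101 and 7.48, 8.51 and 10.4 CPM against at most 0.46 and 0.28 CPM. Cd274, the PD-L1 gene, was higher in the niche libraries by a log2 of -2.11. Cd47, a signal against phagocytosis, was not called, at 524, 518 and 524 CPM in 4T1 cells and 592, 549 and 634 in the niche libraries (adjusted p = 0.0792 by edgeR). Under 5 alternative settings it was called, slightly higher in the niche libraries, at log2 differences between -0.28 and -0.21.

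Of 203 listed receptor genes 182 were tested, and of these 36 were called higher in 4T1 cells and 123 higher in the niche libraries, with a median log2 of -1.49. Receptor tyrosine kinases had 8 of 31 higher in 4T1 cells and 19 higher in the niche libraries. Fgfr2, whose epithelial form binds FGF7 and FGF10 (ENSMUSG00000030849, GRCm38 chr7:130162451-133123350), stood at 230.1, 206 and 194 CPM in 4T1 cells and 65.4, 69.7 and 38.2 in the niche libraries (log2 1.85 ± 0.21 SE, adjusted p = 4.44e-05). Met, the HGF receptor (ENSMUSG00000009376, GRCm38 chr6:17463800-17573980), stood at 25.9, 31.9 and 30.4 against 9.72, 9.86 and 6.69 CPM (log2 1.73 ± 0.17 SE). The groups did not overlap for either gene, as for 12242 of all 16206 tested genes. Outside the niche the order was opposite, since Fgfr2 was at a mean of 67.7 CPM in cultured 4T1 cells and 228 in distal epithelium, and Met at 18.3 and 58.3. The difference of differences, the lung contrast minus the contrast of culture with distal epithelium, was log2 3.62 for Fgfr2 and 3.41 for Met (adjusted p = 6.41e-07 and 4.21e-08). Flt1 and the co-receptor Nrp2 were also higher in 4T1 cells, by log2 1.31 and 0.92.

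On the niche side, Pdgfrb, a mural and fibroblast receptor, stood at 157, 185 and 173 CPM against 0.424, 0.689 and 0.354 in 4T1 cells. Mst1r, the receptor of macrophage-stimulating protein, had 0 counts in 4T1 cells and was at least 219-fold higher in the niche libraries. Fgfr4 had 1 count in 4T1 cells and 15.4, 16.8 and 21.5 CPM in the niche libraries. Egfr itself (ENSMUSG00000020122, GRCm38 chr11:16752203-16918158) was at 1.74, 2.21 and 1.82 CPM in 4T1 cells and 31.8, 39 and 51.6 in the niche libraries (log2 -4.40, adjusted p = 3.49e-07). Of 13 TGF-beta and BMP receptors, none was called higher in 4T1 cells and 12 were higher in the niche libraries. Tgfbr2, the type II TGF-beta receptor, stood at 73.6, 77.5 and 84.1 CPM in 4T1 cells and 518, 517 and 588 in the niche libraries (log2 -2.79). The endothelial receptor Acvrl1 (log2 -4.51), the activin receptor Acvr1b (log2 -2.52) and the pseudoreceptor Bambi (log2 -7.31) lay on the same side.

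Among 18 Wnt receptors and co-receptors, 3 were higher in 4T1 cells and 9 in the niche libraries. Fzd6 stood at 77.6, 67.8 and 68 CPM in 4T1 cells and 18.3, 13.8 and 9.23 in the niche libraries, and Lgr6, a receptor of R-spondins, at 44.2, 40.3 and 46.1 against 11.6, 9.99 and 6.32. Fzd9, the remaining member, was low on both sides, with 58 counts in 4T1 cells and 3 in the niche libraries, a ratio of 18.8 (interval 6.13 to 93.9). Fzd1 was a niche gene at 125, 148 and 140.5 CPM against 2.35, 3.03 and 2.53, and Ror2 had 0 counts in 4T1 cells and was at least 367-fold higher in the niche libraries. Of 23 Notch, Eph, plexin and guidance receptors, 8 were higher in 4T1 cells, near the 32.8% of all tested genes. Among them were Epha2 (96.5, 105 and 93.9 against 34.4, 28.1 and 21.7 CPM), Ephb2 (log2 1.88) and Epha1 (log2 1.70). The 13 on the niche side included Epha3 and Epha7, with 1 and 0 counts in 4T1 cells, and Robo2 at 39.6, 42.6 and 50.9 CPM.

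Cytokine and interferon receptors had 26 of 36 members higher in the niche libraries and 4 higher in 4T1 cells. The 4 were Il18rap (29.9, 25.6 and 32.6 against 13.3, 15.9 and 8.67 CPM), Il12rb1 (28.3, 36.1 and 46.9 against 15.4, 18.8 and 17.6), Il17rc (log2 0.86) and Il15ra (log2 0.61). Lifr, the LIF receptor, stood at 153, 185 and 261 CPM in the niche libraries against 2.45, 2.39 and 3.85, and Il10ra at 24.3, 25.6 and 28.7 against 0, 0.184 and 0.86. Of 19 chemokine receptors, 16 were higher in the niche libraries, among them Cmklr1 at 140.3, 139 and 184 CPM and the monocyte receptors Cx3cr1 and Ccr2 at 99.1, 103 and 131 and 149.6, 156 and 179. The macrophage marker list holds Cx3cr1 and Ccr2, so their levels and its sum are not separate measurements. Ackr3, an atypical receptor of CXCL12, and Cxcr3 were higher in 4T1 cells, at 6.59, 6.71 and 5.92 against 1.5, 1.62 and 0.867 CPM and 17.6, 16.9 and 17.2 against 5.06, 5.09 and 2.91. Of 18 TNF receptor genes, 14 were higher in the niche libraries. Tnfrsf10b, the TRAIL death receptor, stood at 43, 45.5 and 41.4 CPM in 4T1 cells against 11.4, 13.6 and 9.85, and Tnfrsf12a, the TWEAK receptor, at 231, 228 and 263 against 110, 129.9 and 89.4. Tnfrsf22 and Tnfrsf23, decoy relatives of similar sequence, differed by log2 2.08 and 1.68.

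Integrins had 6 of 24 members higher in 4T1 cells and 14 in the niche libraries, against 32.8% and 36.7% of all tested genes. Itga6, an alpha subunit, stood at 141, 122 and 169 CPM in 4T1 cells against 42.8, 38.3 and 30.9, its partner Itgb4 at 176, 186 and 161 against 57.8, 56 and 42.6, and Itga3 at 436, 471 and 427 against 155, 162 and 98.9. Each was higher in all 3 4T1 libraries than in any niche library (log2 1.93, 1.73 and 1.67). Such lack of overlap, in either direction, held for 12242 of all 16206 tested genes. Itga8 stood at 209, 243 and 311 CPM in the niche libraries against 4.62, 7.95 and 5.72, and the leukocyte subunit Itgax at 81.3, 79.5 and 81 against 1.32, 1.52 and 3.34. Itgb1, the shared beta subunit, was not called, at 404, 367 and 407 CPM in 4T1 cells and 451, 474 and 431 in the niche libraries (adjusted p = 0.0541), and was called at log2 -0.26 without in vivo library C and at -0.25 without niche library C (adjusted p = 0.029 both times). It was also called by the DESeq2 test (adjusted p = 0.0113) and by edgeR with DESeq2 size factors (adjusted p = 0.0233). After subtraction of the other side's profile the adjusted p by edgeR was 0.0195, and 0.0179 with wider panels.

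**Figure D3:**
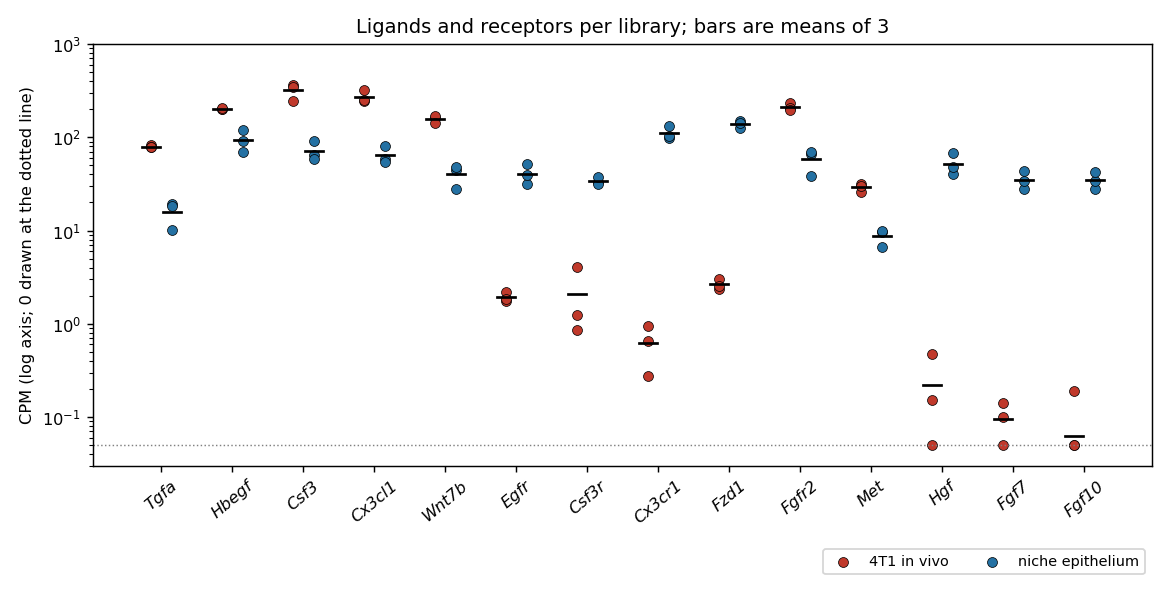
CPM (log axis) of 14 ligand and receptor genes in each of the 3 in vivo 4T1 libraries (red) and 3 niche libraries (blue), with a bar at each mean. The 5 ligands at the left are higher in 4T1 cells and the receptors Egfr, Csf3r, Cx3cr1 and Fzd1 higher in the niche libraries, while Fgfr2 and Met are higher in 4T1 cells and their ligands Hgf, Fgf7 and Fgf10 are at or under 0.48 CPM there.

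Ligands were then set beside their receptors in 80 pairs, of which 69 had both genes tested. In 16 pairs the ligand was called higher in 4T1 cells and the receptor higher in the niche libraries, and in 10 pairs the reverse held. In 26 both were higher in the niche libraries and in 6 both were higher in 4T1 cells. Of 180 tested ligand genes 44 were called higher in 4T1 cells and 110 in the niche libraries, and of 182 receptor genes 36 and 123. Over all tested genes the shares were 32.8% and 36.7%. Whether the pair counts go beyond these one-sided lists was not tested. At 4-fold or more for both genes, 12 pairs had both with the niche libraries. In 3 pairs the ligand lay with 4T1 cells and the receptor with the niche libraries, and none was reversed. Over all tested genes, 2.44% were 4-fold higher in 4T1 cells and 18.9% in the niche libraries. Among 182 tested receptor genes, 6 were 4-fold higher in 4T1 cells and 81 in the niche libraries, so few pairs could be reversed. The 3 pairs were Tgfa with Egfr, Csf3 with its receptor Csf3r (log2 -4.07) and Cx3cl1 with Cx3cr1 (log2 -7.47). Csf3r stood at 33.5, 31.4 and 37.2 CPM in the niche libraries and 0.848, 1.24 and 4.1 in 4T1 cells, with in vivo library C above the other two. Csf3r and Cx3cr1 belong to the neutrophil and macrophage marker lists. Csf1, at 227 TPM, a level per transcript length, in 4T1 cells and 132 in the niche libraries, was paired with Csf1r at 0.9 and 118 TPM, also a macrophage marker. Areg and Hbegf shared the receptor Egfr with Tgfa, so these pairs are not separate observations. The count of 4-fold pairs with the ligand in 4T1 cells ran from 2 to 5 when each library was left out. That count was 7 after subtraction of the other side's profile and 8 with wider panels, added after seeing the data. It was 2 without in vivo library C, and 5 without niche library A or B. The count of reversed 4-fold pairs was 3 without niche library B and 1 without niche library A.

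Among the 10 reversed pairs, those of Fgf1, Fgf7 and Fgf10 shared the receptor Fgfr2, so they are not separate observations. Hgf stood at 27.9 TPM in the niche libraries and 0.133 in 4T1 cells, and its receptor Met at 3.54 and 12.9. Fgf7 and Fgf10 stood at 24 and 13.4 TPM in the niche libraries and at 0.0667 and 0.0267 in 4T1 cells, while Fgfr2 stood at 139 TPM in 4T1 cells and 37.7 in the niche libraries. Gas6 with Axl, Igf1 with Igf1r and Tnfsf12 with Tnfrsf12a had the ligand at log2 -8.91, -9.61 and -6.96, and the receptor at 0.40, 0.54 and 1.12. In these last 3 pairs the receptor was at most 2.18-fold higher in 4T1 cells. Cxcl10 with Cxcr3, Cd274 with Pdcd1, Fgf1 with Fgfr2 and Ntn4 with Unc5b made up the rest. After subtraction of the other side's profile, 5 reversed pairs reached 4-fold for both genes.

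**Figure D4:**
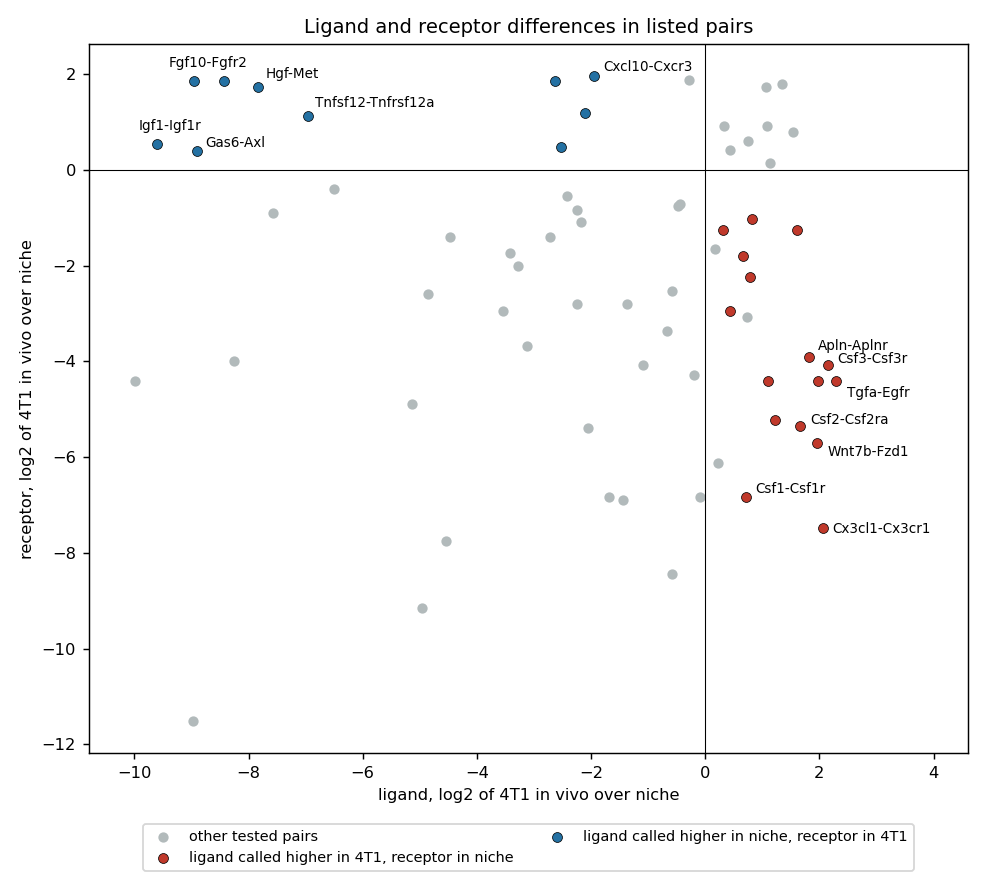
Log2 difference of the ligand (horizontal) and of its receptor (vertical) between 4T1 in vivo and niche libraries for 69 tested pairs, with selected pairs named. The 16 red points have the ligand called higher in 4T1 cells and the receptor in the niche libraries, and the 10 blue points the reverse; no blue receptor exceeds a log2 of 1.96.

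The matrix lists were the most one-sided of the ligand, receptor and matrix categories by median, with 146 of 157 listed genes tested, 110 of them higher in the niche libraries, 26 higher in 4T1 cells and a median log2 of -3.57. Of 26 collagen chains, 23 were higher in the niche libraries. Col1a1 stood at 6059, 7295 and 6227 CPM there and 1.93, 3.77 and 4.66 in 4T1 cells, and Col1a2 at 1506, 1830 and 1642 against 2.07, 0.46 and 1.06. The 3 chains on the 4T1 side were Col8a1, a short-chain collagen, at 200, 224 and 228 against 65.6, 87.8 and 56.9 CPM, Col18a1, a basement membrane collagen, at 421, 424 and 268 against 153, 157 and 156, and Col7a1, of anchoring fibrils (log2 0.76). The call of Col7a1 was lost without in vivo library A, in vivo library B or niche library C (adjusted p = 0.0519, 0.0725 and 0.0551).

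Laminins divided by chain. Of 18 basement membrane genes, 6 were higher in 4T1 cells, near the 32.8% of all tested genes. The other 12 were higher in the niche libraries, against 36.7% of all tested genes. Lamb3, a beta chain of epithelial laminins, stood at 94.2, 89.2 and 66.4 CPM in 4T1 cells and 33.7, 31.1 and 19.8 in the niche libraries, and Lama3, an alpha chain, at 53.5, 52.9 and 37.9 against 29.7, 32.4 and 11.3. The Lama3 call (log2 0.96, adjusted p = 0.0283) was lost without in vivo library A or B (adjusted p = 0.0734 and 0.0816). It was also lost by the DESeq2 test (adjusted p = 0.0922) and by edgeR after subtraction with wider panels (adjusted p = 0.0731). Lama5 was also higher in 4T1 cells (log2 1.53). The mesenchymal chains Lama2 and Lama4 stood at 61.6, 72.3 and 54.9 and 156, 173 and 193 CPM in the niche libraries and at most 0.152 and 0.304 CPM in 4T1 cells.

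Spp1, the osteopontin gene, was on the 4T1 side at 2426, 1870 and 2651 CPM against 1227, 1201 and 712 (log2 1.13 ± 0.21 SE), while 29 of 36 matricellular and glycoprotein genes were higher in the niche libraries. Sparcl1 stood at 2054, 2296 and 2168 CPM there, Eln, the elastin gene, at 1208, 1351 and 818, and Thbs2 at 205, 265 and 177, against at most 2.78, 1.79 and 0.66 CPM in 4T1 cells. Of 23 proteoglycan and hyaluronan genes, 16 were higher in the niche libraries, with Bgn at 971, 1161 and 1154 CPM against 1.04, 1.24 and 2.33. Hyal2 and the hyaluronan synthase gene Has2 were higher in 4T1 cells, by log2 0.97 and 0.95. Crosslinking enzymes lay on different sides. Loxl4 stood at 62.5, 58.7 and 54.2 CPM in 4T1 cells and 11.5, 9.63 and 9.29 in the niche libraries (log2 2.51), whereas Lox and Loxl1 stood at 328, 359 and 271 and 909, 922 and 994 CPM in the niche libraries and at most 0.781 and 1.57 CPM in 4T1 cells. Mmp10 (log2 1.93), the cathepsin gene Ctsl (log2 1.38) and Adam8 (log2 1.08) were higher in 4T1 cells, and Mmp2 (log2 -8.65) in the niche libraries. In total 30 of 43 proteases, inhibitors and crosslinking enzymes were higher in the niche libraries. Collagens, elastin, Sparcl1 and Lox are also products of fibroblasts, whose marker sum in the niche libraries is given above. That list itself holds Col1a1, Col1a2 and Col3a1.

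Of 160 listed immune genes 150 were tested, and of these 116 were higher in the niche libraries, 9 higher in 4T1 cells and none of the 9 reached 4-fold. Of the 6 immune lists, class I antigen presentation had the median nearest to 0, with 11 of 22 genes higher in the niche libraries, 1 higher in 4T1 cells and 10 not called, at a median log2 of -0.40. Tap1, a subunit of the peptide transporter, stood at 202, 229.8 and 277 CPM in 4T1 cells and 409, 526 and 548 in the niche libraries (log2 -1.07), against 6.46 CPM in cultured 4T1 cells. The immunoproteasome subunit Psmb8 was not called, at 452, 509.6 and 693 against 597, 688 and 711 CPM (adjusted p = 0.123), and was called without in vivo library C (log2 -0.50, adjusted p = 0.00322). It was also called by edgeR with the replicate letter as a block (log2 -0.30, adjusted p = 0.0439). Psmb10, another immunoproteasome subunit, was higher in 4T1 cells at 262, 262 and 378 against 198, 201 and 199 CPM (log2 0.58). The difference between tumour and epithelial libraries was narrower here than between cultured 4T1 cells and distal epithelium for 19 of 22 class I genes, against 46.8% of all genes tested in both contrasts, and wider for 1, against 7.91%. The median of that outside contrast was -2.19.

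Interferon-stimulated genes gave 28 of 41 higher in the niche libraries, 2 higher in 4T1 cells and 11 not called, with a median log2 of -0.94 against -3.52 outside the niche. The difference was narrower for 32 of 41 and wider for none. Iigp1, an interferon-inducible GTPase, stood at 275, 331 and 416 CPM in 4T1 cells and 1792, 2277 and 2596 in the niche libraries, against 0.903 CPM in culture. Ifit2 differed by a log2 of -2.92 and Ifi27l2a by -5.10. Igtp was not called, at 452, 547 and 742 CPM in 4T1 cells and 602, 818 and 850.5 in the niche libraries, and was called without in vivo library C or niche library A (log2 -0.64 and -0.53). It was also called by DESeq2 (log2 -0.44), without the filter (log2 -0.39) and with the replicate letter as a block (log2 -0.41). The 2 genes on the 4T1 side were Isg20 (log2 0.37) and Oas1g, whose call (log2 0.33, adjusted p = 0.0442) was lost when any library but in vivo library A was left out, at adjusted p of 0.0656 to 0.233. The Oas1g call was also lost by the DESeq2 test (adjusted p = 0.0979), and by edgeR with DESeq2 size factors or all 15 libraries (adjusted p = 0.0891 and 0.445). In vivo library C was the highest 4T1 library for Tap1, Psmb8, Psmb10, Iigp1 and Igtp, and it also held the most macrophage marker RNA among the 3. Narrowing was common across all genes, genes enriched on each side were measured in the other's libraries at the shares given above, and the part of this in the list values was not tested.

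RefSeq promoter windows on GRCm38.p6, from 250 bases before to 50 after each start, were searched for 2 motifs on both strands. The core of the interferon-stimulated response element, read as a GAAA, any 2 bases and a second GAAA, was found in 19 of 30 matched interferon-stimulated genes (63.3%), 5 of 19 class I genes (26.3%) and 1079 of 27025 genes with a window (3.99%). The following are the 120 bases before the start of 3 genes of the interferon list that hold it, 5′ to 3′ on the gene's strand with the motif in capitals, shown because most of this list differed less in lung than outside the niche; they were chosen after their values were seen.
Isg15 (chr4:156200819-156200938, minus strand): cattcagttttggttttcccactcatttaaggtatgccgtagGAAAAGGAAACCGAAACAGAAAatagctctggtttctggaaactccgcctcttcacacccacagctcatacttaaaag
Ifit1 (chr19:34640769-34640888, plus strand): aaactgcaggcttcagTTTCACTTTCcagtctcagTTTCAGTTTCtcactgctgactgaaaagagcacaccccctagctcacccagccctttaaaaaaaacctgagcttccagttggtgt
Gbp2 (chr3:142620543-142620662, plus strand): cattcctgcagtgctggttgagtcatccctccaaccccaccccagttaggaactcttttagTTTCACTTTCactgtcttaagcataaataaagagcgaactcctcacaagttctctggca
Isg15, a ubiquitin-like protein, stood at 65.3, 68.5 and 112 CPM in 4T1 cells and 127, 152 and 190 in the niche libraries (log2 -0.94), and Ifit1, an RNA-binding antiviral protein, at 47.8, 61.7 and 82.9 against 119, 159.7 and 206 (log2 -1.34). Gbp2, a guanylate-binding protein, was not called, at 421, 528 and 625 against 508, 705 and 725 CPM (adjusted p = 0.13). In cultured 4T1 cells the 3 were at means of 16.9, 11 and 5.01 CPM. A match describes the letters of the window and says nothing of a bound factor.

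Class II presentation lay with the niche libraries for 14 of 14 genes, at a median log2 of -3.48. H2-Ab1, a class II beta chain, stood at 2200, 2527 and 3420 CPM in the niche libraries and 70.5, 124 and 224 in 4T1 cells, and H2-Aa, the alpha chain, at 1004, 1136 and 1448 against 49.2, 79.3 and 137. Cultured 4T1 cells had 0.0839 and 0.014 CPM of the pair and distal epithelium 2230 and 962. Ctss, a protease of the class II pathway, stood at 1570, 1233 and 1169 CPM in the niche libraries and 16.5, 29.7 and 137 in 4T1 cells, where in vivo library C was far above the others. Pan-leukocyte markers summed to 157 to 287 CPM in 4T1 cells and 2504 to 2817 CPM in the niche libraries, and their part in the class II levels of either side was not tested. The CCAAT box, spelled as its name and read on both strands, is the Y box of class II promoters when reversed. It was found in 9 of 11 matched class II windows (81.8%) and 11096 of all 27025 (41.1%). Class I genes held it in 14 of 19 windows (73.7%) and interferon-stimulated genes in 11 of 30 (36.7%), so a high share was not particular to class II. The 120 bases before the start of H2-Aa and H2-Eb1 are shown in the same way, with each such box on either strand in capitals.
H2-Aa (chr17:34287824-34287943, minus strand): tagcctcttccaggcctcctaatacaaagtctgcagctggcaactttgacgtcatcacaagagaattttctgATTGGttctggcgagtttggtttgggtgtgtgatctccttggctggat
H2-Eb1 (chr17:34305747-34305866, plus strand): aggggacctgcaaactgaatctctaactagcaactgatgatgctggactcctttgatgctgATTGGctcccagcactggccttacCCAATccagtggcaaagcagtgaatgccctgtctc
H2-Eb1, another class II beta chain, stood at 657, 791 and 923 CPM in the niche libraries and 42.7, 58.1 and 129 in 4T1 cells (log2 -3.38). Histocompatibility genes have near-identical relatives, so that their single values depend on how shared reads were split.

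**Figure D5:**
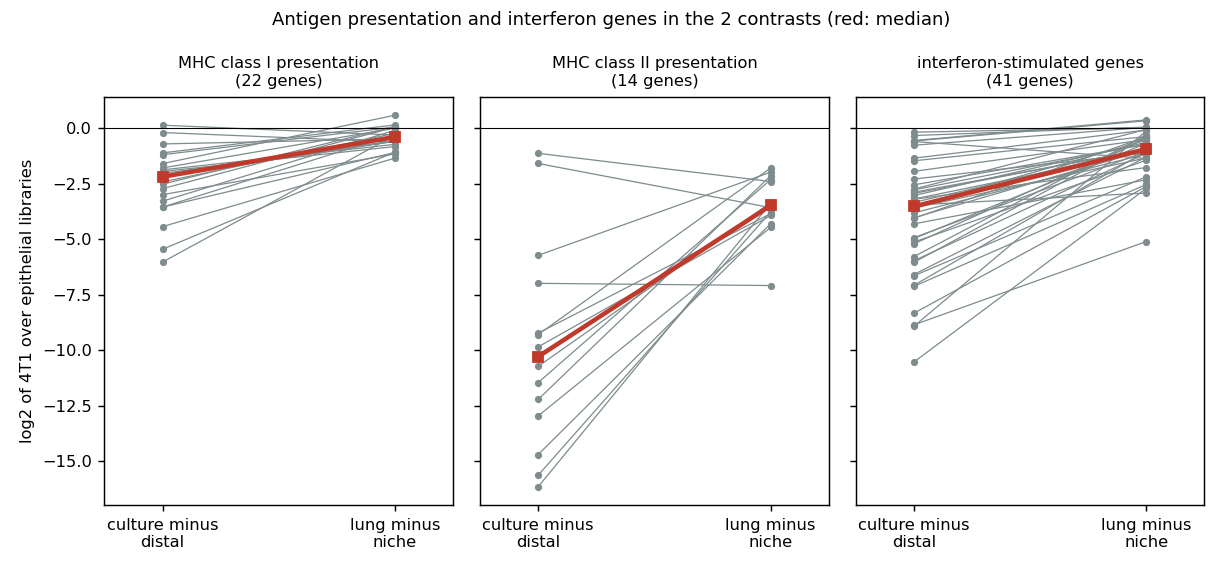
Log2 of 4T1 over epithelial libraries for each gene (grey) of 3 immune lists, at the left for cultured 4T1 cells minus distal epithelium and at the right for 4T1 cells from lung minus niche libraries, with the list median in red. The medians move from -2.19 to -0.40 for class I, from -10.28 to -3.48 for class II and from -3.52 to -0.94 for interferon-stimulated genes.

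Complement and acute phase genes lay mostly with the niche libraries. Of 21 complement genes and regulators, 18 were higher in the niche libraries, with a median log2 of -5.63. Serping1, the C1 inhibitor gene, stood at 2100, 2617 and 3570 CPM there and 2.07, 2.53 and 3.49 in 4T1 cells, and C7, a part of the membrane attack complex, at 761, 671 and 1008 against 1.22, 1.01 and 0.455. C1qb, counted here as a macrophage marker, stood at 676, 738 and 955 against 1.88, 1.56 and 3.19 CPM. Clu, a regulator of the terminal pathway, was higher in 4T1 cells (log2 0.68), as was Masp1 (log2 1.12), whose call was lost without in vivo library A or niche library B (adjusted p = 0.0603 and 0.0537). Of 22 acute phase, collectin and antimicrobial genes, 20 were higher in the niche libraries, among them Saa3 at 449, 481 and 855 CPM against 0.565, 0.781 and 2.53. The 2 on the 4T1 side were the protease inhibitor genes Slpi, at 732, 506 and 960.3 against 213, 223 and 131 CPM, and Wfdc2, at 115, 96.8 and 141 against 38, 42.5 and 20.7. Of 30 pattern recognition genes, 25 were higher in the niche libraries. Tlr13 stood at 54.9, 43.8 and 42.2 CPM against 0.0942, 0.689 and 0.961, while the DNA sensor gene Cgas (log2 0.80) and Tlr3 (log2 0.43) were higher in 4T1 cells, the latter without a call on TPM with limma (adjusted p = 0.0694). Tlr9 had 3 counts in all in 4T1 cells, a ratio of 283 (interval 96.5 to 1374).

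Sox9, a transcription factor gene of epithelial progenitors, stood at 313, 360 and 262 CPM in 4T1 cells and 61.6, 57.1 and 32.8 in the niche libraries (log2 2.61 ± 0.23 SE, adjusted p = 1.22e-05), with 6.29 CPM in distal epithelium. The 137 carcinoma genes above stood in niche libraries A, B and C at medians of 26.8%, 26.4% and 17.3% of their level in 4T1 cells from lung. Whether the Sox9 transcripts of the niche libraries came from 4T1 cells or from niche cells was not tested. Krt8 and Krt18, keratins of simple epithelium, were higher in 4T1 cells by log2 2.07 and 1.73, the filament gene Vim by 1.44 and the proliferation gene Mki67 by 1.33. Cdh1, the E-cadherin gene, was higher in 4T1 cells by 0.58, a call lost without in vivo library A or B (adjusted p = 0.087 and 0.0709). Niche library C was the lowest of the niche libraries for Sox9, Krt8, Krt18, Cdh1, Vim and Mki67.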

How the data were processed

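RNA was sequenced in bulk from sorted cells, with groups read from the titles. The authors made the deposited expected counts and TPM values with RSEM against GRCm38, per the submitters' processing notes, which also name DESeq2. The aligner, annotation release, strand setting and versions were not given in the sources used here, so reads of overlapping or antisense genes may not be separated. Expected counts were rounded to whole numbers, and between 11.8% and 14.1% of genes had values that were not whole. Of 54838 gene IDs, 54809 were named from the annotation table. Counts were tested with edgeR 4.0.16 in R 4.3.3 (TMM scaling, filterByExpr, quasi-likelihood test, Benjamini-Hochberg adjustment at 0.05), with 3 libraries against 3. The difference of differences was an interaction term over 12 libraries. limma 3.58.1 and DESeq2 1.42.0 served as alternatives. Tables and figures used Python 3.11.15, pandas 2.3.3, scipy 1.17.1 and matplotlib 3.10.9, and the test was checked on simulated data. TPM served to compare levels between genes.

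A count of 3 was the floor of a group, at 0.0478 CPM in 4T1 cells and 0.0491 CPM in the niche libraries. Intervals (95%) and floors cover counting error only. The members and lists were chosen with earlier results of these data known. Named genes are the 10 largest called differences in each direction at 5 CPM or more without overlap, up to 4 members of each list in each direction, and the highest member without a call. Members of reversed pairs and some single members were named after their values were seen. Promoter sequences are from RefSeq, build GRCm38.p6. Libraries of a group differed by more than sampling noise, since chi-square divided by its degrees of freedom ran from 8.27 to 25.2 between libraries.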

Additional observations from a re-analysis of the deposited data

Results flagged for a closer look

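The difference between tumour and epithelial libraries in the lung was set against that between cultured 4T1 cells and distal epithelium with edgeR's interaction test. Of 17827 genes tested, 5404 had a positive difference of differences past an adjusted p of 0.05 and 3944 a negative one. How many of all genes also had opposite order of the sides in the 2 contrasts was not counted. Of 280 named genes, 17 had such an opposite order, with each contrast called and a positive difference of differences past that threshold. Most named genes were chosen for the size of their lung difference. Without a count over all genes, the 17 cannot be set against a background share. Values are log2. Among ligands these were Areg (2.56), Cxcl1 (1.20), Pdgfa (2.03) and Sema3b (3.96). Among receptors they were Epha1 (2.20), Fgfr2 (3.62), Il15ra (1.72), Il17rc (1.28), Met (3.41) and Plxnb1 (2.40). The matrix and immune genes were Ecm1 (1.02), Sdc1 (1.34), Isg20 (0.93) and Psmb10 (2.18). The lung difference of Sdc1 (log2 0.44) lost its call without in vivo library A or B (adjusted p = 0.0745 and 0.0507). The remaining genes were Gprc5a (2.75), Rtkn2 (4.07) and Uox (6.43). The distal and niche libraries differ in their marker sums, and the part of that in these values was not tested.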

How the results depend on the processing

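Of 280 named genes, 279 on TPM with limma, none that was called in either fit changed direction in any of 15 alternative settings. Changes of direction without a call in either fit were not counted. The count of genes at least 4-fold higher in 4T1 cells (396) was 181 on TPM with limma, 878 after subtraction of the other side's profile and 1577 with wider panels, an alternative added after seeing the data, and the count at least 4-fold higher in the niche libraries (3058) was 1678 on TPM with limma. The limma setting used the log2 of TPM plus 1, not counts. The cause of these shifts was not tested. The carcinoma panel averaged 11.1% over 3 genes, 81.7% with limits of 50 and 0.5 CPM, which left 1 gene, and 23.5% with the wider panel. The epithelial panel averaged 0.778%, 2.33% as a ratio of sums and 1.74% with the wider panel. Leaving out each library gave 10620 to 11286 called genes, 42 to 44 ligand genes higher in 4T1 cells and 108 to 111 higher in the niche libraries. Whether the shared letters pair the libraries is not known. Correlations of same-letter deviations were 0.026, 0.081 and 0.02, and those of different letters ran from -0.106 to 0.064. With 3 libraries in each group these values cannot decide it. With the letter as a replicate block 10930 genes were called, 5137 higher in 4T1 cells and 5793 higher in the niche libraries. Depth limits genes with under 3 counts in a group.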
